A study of Mus musculus with 10 samples.

Results

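The Hedgehog pathway genes followed on these arrays are the 8 mouse genes Shh, Ptch1, Smo, Gli1, Gli2, Gli3, Hhip and Sufu, out of 19505 genes named by probe sets. They were found by symbol in the probe-to-gene table of the platform, and each had 1 probe set. All 8 passed the level filter of the fits, which kept the 13653 genes whose mean log2 signal lay at or above the 30th percentile (4.86). Whole back skin of C57BL/6J mice, 9 weeks old when the experiment began, was profiled on 10 Affymetrix arrays. Expanded skin (4 arrays) lay over a silicone expander that had been enlarged step by step with injections of PBS, a salt solution. Non-expanded skin (4 arrays) lay over an implanted expander that received no PBS, so all 8 of these animals or pools carried the implant and had surgery. Each arm had 1 array at days 0, 7, 14 and 21 after filling of the expander was complete. Skin of wild-type adults without surgery was taken in anagen (1 array), the growth stage of the hair cycle, and in telogen (1 array), its resting stage.

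The labels leave it unsaid if RNA of single animals or pooled RNA went on an array, and within an arm each array is of another day, so p-values measure only the spread between these arrays. Whole skin mixes many cell types, so fewer cells of a type and less RNA per cell cannot be told apart. The hair stage of the skin over the expanders is not given by the labels.

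Hedgehog signalling starts when a secreted ligand, here Sonic hedgehog (Shh), binds the receptor Patched (Ptch1), which otherwise holds back the transmembrane protein Smoothened (Smo). Released Smo acts in the primary cilium on the Gli transcription factors, which Sufu restrains in the cytoplasm. Gli1, Ptch1 and Hhip are transcribed in response to the pathway and are commonly read as its output, while Ptch1 and Hhip also damp it by binding ligand. In skin, Shh comes mainly from the growing hair follicle, and the pathway is needed for the follicle's growth in anagen. Telogen follicles hold cells in the upper bulge and in the germ that use the pathway too.

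Promoter sequence is shown for Hhip and Ptch1, a pair of the known Gli targets whose signals moved together on these arrays. RefSeq (build GRCm38.p6) gave promoters for 6 of the 8 genes, and Gli1 and Shh are named only. The 250 bases before the annotated start are printed on the minus strand, chr8:80058009-80058258 for Hhip and chr13:63565736-63565985 for Ptch1, 5′ to 3′. The Ptch1 window lies wholly inside the annotated span of the gene, before 1 of its starts. The Hhip window overlaps the annotated span of its gene, which ends at chr8:80058060, and lies mostly outside it. Capitals mark the runs that come closest to the Gli-binding motif GACCACCCA or its reverse TGGGTGGTC.
Hhip: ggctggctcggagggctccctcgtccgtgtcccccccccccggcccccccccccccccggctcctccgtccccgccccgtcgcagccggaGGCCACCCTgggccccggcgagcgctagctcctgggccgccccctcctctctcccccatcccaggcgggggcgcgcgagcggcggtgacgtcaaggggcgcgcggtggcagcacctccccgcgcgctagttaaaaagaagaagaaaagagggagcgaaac
Ptch1: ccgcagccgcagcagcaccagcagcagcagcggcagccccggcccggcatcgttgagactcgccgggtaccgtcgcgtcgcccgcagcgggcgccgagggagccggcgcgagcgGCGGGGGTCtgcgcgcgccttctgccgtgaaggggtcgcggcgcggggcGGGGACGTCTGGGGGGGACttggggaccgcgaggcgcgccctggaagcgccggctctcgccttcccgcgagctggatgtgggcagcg
Hhip held 1 run that shares 7 of the 9 letters, and 51.8% of all 32851 promoter entries hold 1 at least as close in the same 250 bases. Ptch1 held 4 runs, partly overlapping, that share 6 letters, as close as in 98.6% of the entries. Over the full window of 300 bases, 0 of the 6 promoters held the motif with 9 letters or with 8, against 0.253% and 6.74% of all entries. That says only that these letters are not in these windows.

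Signals are log2 values on the deposited scale. Array medians lay between 6.27 and 6.45, and the 23 background probe sets of the platform had medians between 5.32 and 5.53 by array and single values between 2.57 and 6.66. Markers of basal epidermis, suprabasal epidermis and fibroblasts were high on all 10 arrays, with list means of at least 13.43, 12.78 and 16.41. The mean of 17 hair shaft and inner root sheath genes was 15.85 on the anagen array and 6.41 on the telogen array. It was 5.13, 11.79, 5.67 and 6.34 in expanded skin and 4.95, 4.83, 7.65 and 4.94 in non-expanded skin at days 0, 7, 14 and 21. Hair genes were thus high on the expanded array of day 7, and above the telogen array also on the non-expanded array of day 14.

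The known targets Gli1, Ptch1 and Hhip were lower in all skin over expanders, stretched or not, than in skin without surgery of either hair stage. Of these, Gli1 fell in expanded skin by the test across all genes. Between expanded and non-expanded skin 0 of the 8 genes differed by that test. The anagen array stood above the telogen array for all 8 genes, by 0.62 (Gli1) to 2.62 (Sufu) on the log2 scale.

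**Figure D1:**
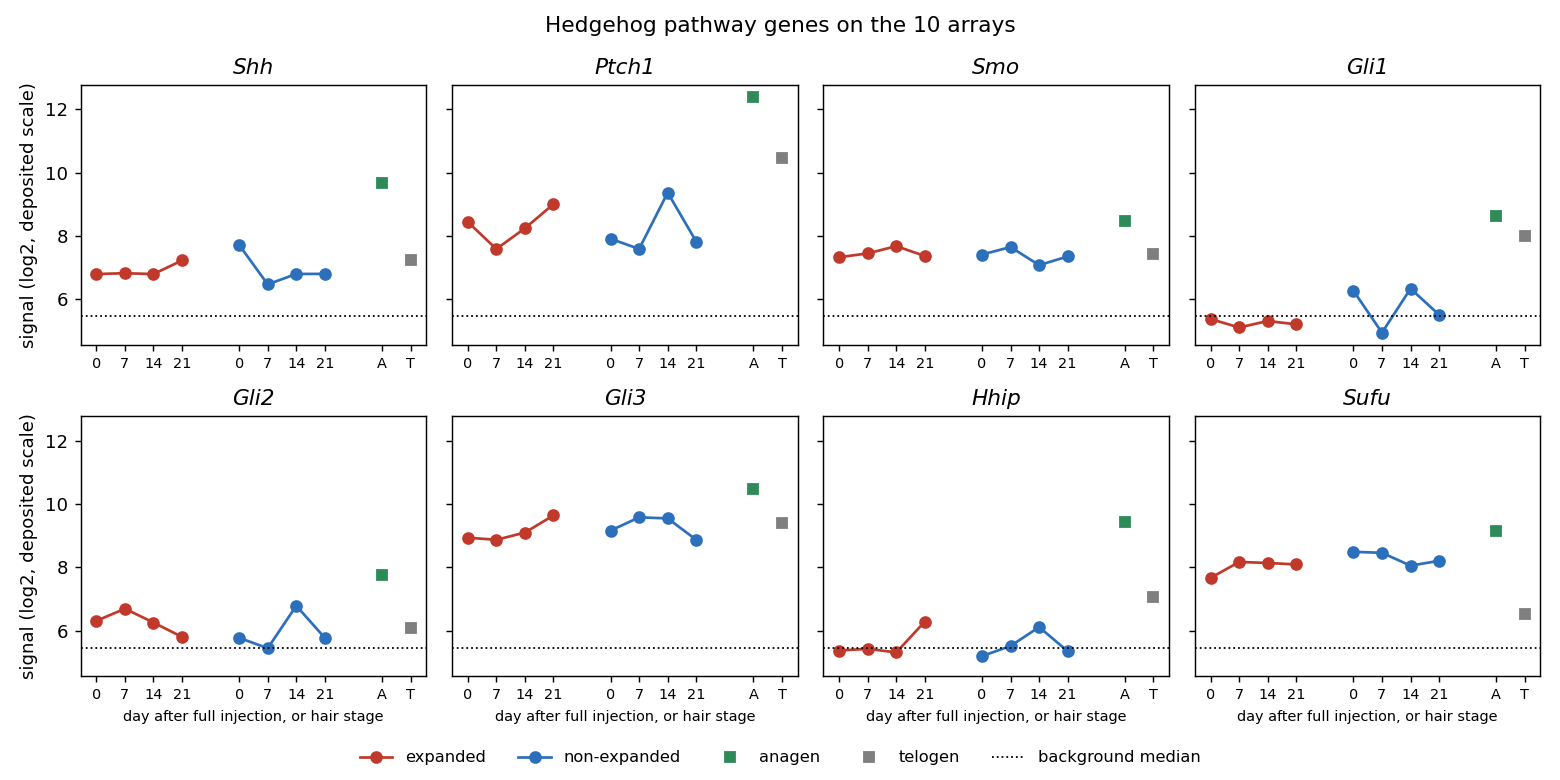
Log2 signal (deposited scale, vertical axis) of each of the 8 genes on every array, by day after full injection for expanded skin (red) and non-expanded skin (blue) and for anagen (A) and telogen (T) skin without surgery. The dotted line is the median of the background probe sets over all arrays (5.46). Gli1, Ptch1 and Hhip lay below both arrays without surgery on all 8 expander arrays, and Gli1 in expanded skin lay at the dotted line.

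Shh, the ligand (mm10, chr5:28456840-28467101), had 6.80, 6.83, 6.80 and 7.23 in expanded skin at days 0, 7, 14 and 21. Non-expanded skin had 7.72, 6.47, 6.80 and 6.81 at those days, and skin without surgery had 9.69 in anagen and 7.23 in telogen. Anagen was thus the highest array, while telogen lay within the range of the non-expanded arrays and level with expanded day 21. Expanded skin averaged 6.91 ± 0.21 and non-expanded skin 6.95 ± 0.54 (SD, n = 4 each). Shh was 1.55 ± 0.59 (SE) lower on the log2 scale in expanded skin than in the 2 arrays without surgery, with an adjusted p of 0.225 by limma. Set against the telogen array alone, expanded skin differed by -0.32.

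Ptch1, the receptor of the ligand (chr13:63508328-63573460), had 8.45, 7.59, 8.25 and 9.01 in expanded skin. In non-expanded skin it had 7.91, 7.59, 9.37 and 7.82, and without surgery 12.40 in anagen and 10.47 in telogen. Every expander array lay at least 1 log2 unit below telogen, and the arms overlapped over nearly their whole range. The highest array of each arm was day 21 in expanded skin and day 14 in non-expanded skin. Ptch1 differed from skin without surgery by -3.11 ± 0.64 in expanded skin (95% interval -4.52 to -1.70, adjusted p = 0.0623) and by -3.26 ± 0.64 in non-expanded skin (adjusted p = 0.0739). Neither passed the threshold of 0.05.

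Hhip, a membrane protein that binds Hedgehog ligands and keeps them from the receptor (chr8:79965850-80058060), had 5.37, 5.42, 5.31 and 6.28 in expanded skin. Non-expanded skin had 5.19, 5.51, 6.11 and 5.35, against 9.42 in anagen and 7.07 in telogen. All 8 expander arrays lay below telogen, with the same high days as for Ptch1. Only 1 of 4 expanded and 2 of 4 non-expanded arrays lay above the background median of their array, so the low values are near the array's limit and its differences rest in part on background signal. The difference from skin without surgery was -2.65 ± 0.58 in expanded skin (adjusted p = 0.0674) and -2.71 ± 0.58 in non-expanded skin (adjusted p = 0.0826).

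Smo, the transducer that Ptch1 holds back (chr6:29735497-29761366), had 7.33, 7.45, 7.68 and 7.37 in expanded skin. It had 7.42, 7.65, 7.08 and 7.36 in non-expanded skin, 8.47 in anagen and 7.42 in telogen. Apart from the anagen array, all values lay within 0.6 log2 units of each other, and telogen lay inside the range of both arms. Expanded skin differed from skin without surgery by -0.48 ± 0.33 (adjusted p = 0.513) and from telogen alone by 0.04.

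Gli1, the Gli factor that acts as an activator and is itself a target (chr10:127329882-127341579), had 5.38, 5.11, 5.32 and 5.21 in expanded skin. It had 6.27, 4.95, 6.34 and 5.52 in non-expanded skin, and 8.63 in anagen and 8.01 in telogen. Both arrays without surgery stood above the brightest background probe set of any array (6.66), while every expanded array lay below its own background median. In non-expanded skin 3 of 4 arrays lay above that median, the highest by 0.88. Expanded skin averaged 5.26 ± 0.12 and non-expanded skin 5.77 ± 0.66 (SD, n = 4 each).

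Gli1 fell by 3.06 ± 0.40 on the log2 scale in expanded skin against skin without surgery (95% interval -3.96 to -2.17, adjusted p = 0.0203 by limma), lower on 4 of 4 arrays. Since Gli1 was not above the background median on any expanded array, the drop is a bound. With each expanded array set to its background median, Gli1 was at least 7.31-fold lower than the mean of anagen and telogen, and at least 5.90-fold lower than telogen. In non-expanded skin the difference was -2.55 ± 0.40 (adjusted p = 0.0716), which missed the threshold. The call in expanded skin held without day 7 and was lost without day 0, 14 or 21 (adjusted p = 0.0843, 0.0991 and 0.0637), although the difference stayed between -3.10 and -3.01. Against telogen alone it was -2.75 (adjusted p = 0.0543).

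Gli2, the main activator at the start of a Hedgehog response (chr1:118834061-119054405), had 6.31, 6.69, 6.25 and 5.80 in expanded skin. It had 5.77, 5.44, 6.78 and 5.77 in non-expanded skin, 7.76 in anagen and 6.07 in telogen. Telogen lay within both arms, and anagen alone stood apart. The difference from skin without surgery was -0.65 ± 0.51 in expanded skin (adjusted p = 0.578) and -0.97 ± 0.51 in non-expanded skin (adjusted p = 0.378).

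Gli3, which acts largely as a repressor when the pathway is off (chr13:15463723-15730026), had 8.93, 8.87, 9.09 and 9.64 in expanded skin. It had 9.16, 9.58, 9.54 and 8.87 in non-expanded skin, 10.47 in anagen and 9.39 in telogen. Telogen again fell within both arms. Differences from skin without surgery were -0.80 ± 0.38 in expanded skin (adjusted p = 0.329) and -0.65 ± 0.38 in non-expanded skin (adjusted p = 0.441).

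Sufu, the cytoplasmic inhibitor of the Gli factors (chr19:46396896-46488804), had 7.66, 8.17, 8.14 and 8.09 in expanded skin. It had 8.49, 8.46, 8.05 and 8.20 in non-expanded skin, 9.15 in anagen and 6.53 in telogen. Its order of arrays was unlike that of the other 7 genes, since telogen was its lowest array and all 8 expander arrays lay between telogen and anagen. Expanded skin differed from skin without surgery by 0.17 ± 0.57 (adjusted p = 0.924), from telogen alone by 1.48 and from anagen alone by -1.14. Non-expanded skin differed from telogen alone by 1.77 and from anagen alone by -0.85.

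**Figure D2:**
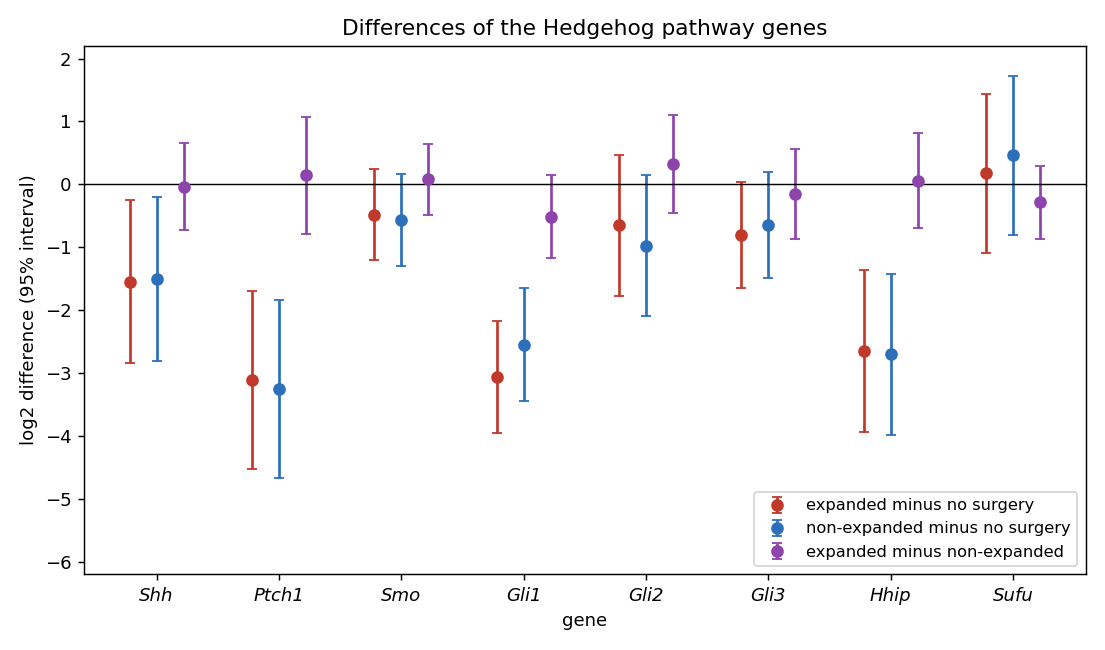
Log2 difference (vertical axis) of each of the 8 genes (horizontal axis) with its 95% interval from limma, for expanded skin minus skin without surgery (red), non-expanded skin minus skin without surgery (blue) and expanded minus non-expanded skin (purple). The red and blue intervals of Shh, Ptch1, Gli1 and Hhip lie below 0 before adjustment over all genes, Gli1 in red alone passes after it, and every purple interval crosses 0.

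Across all genes, expanded skin differed from skin without surgery in 65 of 13653 genes (0.476%), and 4 of these were lower in expanded skin (0.0293%). Gli1 was 1 of those 4 and the 1 member called among 8, and it had the smallest p of all genes lower in expanded skin. Non-expanded skin differed from skin without surgery in 0 genes (0.0%), where limma gave 2144 genes at an unadjusted p under 0.05 and a lowest adjusted p of 0.0646. Gli1 again had the smallest p among the genes that were lower. At an unadjusted p under 0.05, 4 of the 8 genes were lower in each comparison, Gli1, Ptch1, Hhip and Shh. Of all 13653 genes, 777 were lower at that p in expanded skin (of 2234 in both directions) and 858 in non-expanded skin. The median difference of the 8 genes was -1.17 in expanded skin and -1.24 in non-expanded skin, against 0.01 for all genes tested in both. These comparisons share the anagen and telogen arrays, so their likeness is no separate evidence.

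The mean of anagen and telogen is a wide group, since these 2 arrays lie far apart for most of the genes. A count that does not average them is the number of genes for which all 8 expander arrays lay below both arrays without surgery. That held for 3 of the 8 genes, Gli1, Ptch1 and Hhip (37.5%), and for 566 of the 13653 genes (4.15%). For 0 of the 8 genes did all expander arrays lie above both, which 1106 genes did. Against telogen alone, expanded skin differed by -2.15 for Ptch1 and -1.48 for Hhip. In the same way non-expanded skin differed by -2.24 for Gli1, -2.29 for Ptch1, -1.53 for Hhip and -0.28 for Shh. Against anagen alone, expanded skin differed by -3.37 for Gli1, -4.08 for Ptch1, -3.82 for Hhip and -2.77 for Shh. Non-expanded skin differed from anagen by -2.86, -4.22, -3.88 and -2.74 for these genes. Each of these fits has only 1 array without surgery.

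No difference between expanded and non-expanded skin was detected in these genes. In expanded against non-expanded skin, with the day as a block, 0 of 13653 genes passed (0.0%; 1202 at an unadjusted p under 0.05 by limma, lowest adjusted p 0.221), and 0 of the 8 genes had an unadjusted p under 0.05. The furthest from 0 was Gli1 at -0.51 ± 0.27 (95% interval -1.17 to 0.15, adjusted p = 0.645), lower in expanded skin on 3 of 4 days. Gli2 differed by 0.32 ± 0.33, Sufu by -0.29 ± 0.24, Gli3 by -0.15 ± 0.30 and Ptch1 by 0.15 ± 0.39. Without day 7 the difference of Gli2 was 0.012 and without day 14 it was 0.60, and without day 0 that of Sufu was -0.11. Smo (0.08 ± 0.23), Hhip (0.06 ± 0.32) and Shh (-0.04 ± 0.29) were closest to 0. The intervals are wide, and that of Ptch1, from -0.78 to 1.08, still allows a difference of about 1 log2 unit in either direction. With 4 pairs of arrays, the smallest p that an exact permutation test allows is 0.125.

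In all 8 genes the difference was positive on at least 1 day and negative on at least 1 other. Expanded minus non-expanded signal of Ptch1 was 0.53, -0.00, -1.13 and 1.18 at days 0, 7, 14 and 21. Hhip followed the same order of days, with 0.18, -0.09, -0.80 and 0.94. For both genes the day 14 value comes from the high non-expanded array and the day 21 value from the high expanded array. Gli1 differed by -0.89, 0.17, -1.02 and -0.30, and Gli2 by 0.54, 1.25, -0.53 and 0.03. Sufu was lower in expanded skin at 3 of 4 days (-0.82, -0.29, 0.09 and -0.12). Each of these is a difference of 1 array against 1 and has no test.

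No course over time passed a test. The straight-line change over 21 days was called for 0 genes in expanded skin (0.0%; 339 at an unadjusted p under 0.05 by limma), 0 in non-expanded skin (495) and 0 for the difference of slopes (166), and 0 of the 8 genes had an unadjusted p under 0.05 in any of them. Gli3 had the smallest p in expanded skin, with a change of 0.70 ± 0.48 over the 21 days, which was 0.24 without day 21 and 1.15 without day 0. Shh had it in non-expanded skin (-0.72 ± 0.53) and in the difference of slopes (1.10 ± 0.76). The slope of Shh in non-expanded skin rests on the day 0 array of 7.72 and was 0.50 without that day, and the difference of slopes was then 0.11.

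Anagen skin stood at least 2-fold above telogen skin for 7 of the 8 genes (87.5%), against 23.5% of all genes tested, with 20.4% at least 2-fold below. The differences were 2.62 for Sufu, 2.45 for Shh, 2.35 for Hhip, 1.93 for Ptch1, 1.69 for Gli2, 1.08 for Gli3 and 1.05 for Smo on the log2 scale. Gli1 differed by 0.62, since telogen skin already held it at 8.01. The median over all genes was -0.01. With each array centred on its median, every such difference was larger by 0.12. These are 1 array against 1, with no test and no replicate.

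Hair genes and the Hedgehog genes were also set side by side array by array, as a description with no test. The expanded array of day 7 had the highest hair gene mean of the 8 (11.79, against 4.83 in non-expanded skin of that day), and Trichohyalin (Tchh), a protein of the inner root sheath, reached 17.16 on it. On that array Ptch1 (7.59) had the lowest signal of the arm and Gli2 (6.69) the highest. Gli1 (5.11) was also lowest there, but it was below the background median on every expanded array. Hhip (5.42) lay near the background median and Shh (6.83) close to its 6.80 at days 0 and 14, so their ranks say little. Other listed Gli targets went both ways on the expanded day 7 array. Sox9 (12.04), Sfrp1 (13.70), Prdm1 (10.27) and Rasl11b (6.58) had their highest signal of the arm on it. Ccnd2 (10.315) and Bcl2 (10.64) had their lowest. The non-expanded array of day 14, where the hair mean was 7.65, had the highest Ptch1 (9.37), Gli1 (6.34), Hhip (6.11) and Gli2 (6.78) of its arm, with Shh at 6.80. The telogen array, with a hair mean of 6.41, had more Gli1, Ptch1 and Hhip than any expander array.

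**Figure D3:**
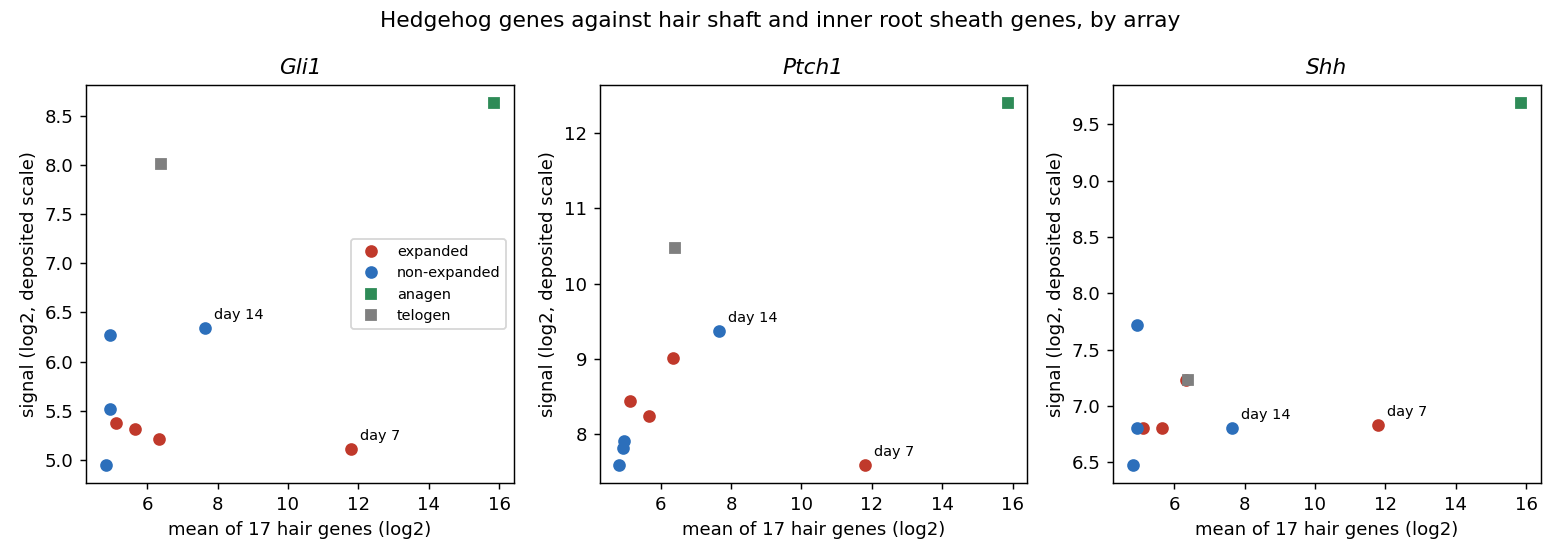
Log2 signal of Gli1, Ptch1 and Shh (vertical axes, each with its own range) against the mean log2 signal of 17 hair shaft and inner root sheath genes (horizontal axis), 1 point per array. The expanded array of day 7 has a hair mean of 11.79 with low Gli1 and Ptch1, and the telogen array (hair mean 6.41) stands above all expander arrays for both. In the Shh panel the telogen point covers that of expanded day 21.

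Some markers of other cells also separated the expander arrays from both arrays without surgery. Of all 13653 genes tested, 566 (4.15%) were below both on all 8 expander arrays and 1106 were above both. Of 5 macrophage markers, 4 (Adgre1, Csf1r, Mrc1 and Lyz2) were above both arrays without surgery on all 8 expander arrays, and the list mean was 12.50 to 14.11 in expanded skin, 12.87 to 14.96 in non-expanded skin, 9.79 in anagen and 12.01 in telogen. Of 12 dermal papilla markers tested, Corin and Wif1 were below both on all 8. Corin had 4.24 to 5.37 over the expanders, 8.91 in anagen and 5.48 in telogen. The telogen value lies at the background median of its array (5.46), so the place of Corin below telogen rests on background signal. In the fit of expanded skin against skin without surgery, 9 of the 12 were lower and 3 higher. The list mean over 17 genes was 6.38 to 6.69 in expanded skin and 6.07 to 6.50 in non-expanded skin. It was 7.09 in anagen and 6.50 in telogen. Wif1, a secreted Wnt inhibitor, had 6.10 to 6.17 in expanded skin and 5.34 to 5.83 in non-expanded skin, against 10.20 in anagen and 7.30 in telogen. The range of the dermal papilla list mean in expanded skin included the telogen array. Of 6 endothelial markers, Pecam1 and Vwf were above both on all 8, and the list mean was 9.27 to 10.37 in expanded skin, 9.32 to 10.54 in non-expanded skin, 8.09 in anagen and 9.49 in telogen. Of 6 adipocyte markers, Adipoq was below both on all 8, and the list mean was 9.50 to 10.47 in expanded skin, 9.47 to 11.36 in non-expanded skin, 11.59 in anagen and 11.20 in telogen. Of 12 skeletal muscle markers, Myh4 was below both on all 8, but the list mean did not follow that split. It was 12.89 to 15.43 in expanded skin, 15.62 to 16.35 in non-expanded skin, 13.14 in anagen and 16.79 in telogen. Above both on all 8 were also Itgb4 (of 6 basal epidermis markers) and Pmp22 (of 3 Schwann cell markers tested). In the fit of expanded skin against skin without surgery, 5 basal epidermis markers were higher and 1 lower. Of the Schwann cell markers 1 was higher and 2 were lower. Below both were Sox9 and Foxc1 (of 10 hair follicle stem cell markers). In that fit 5 of these 10 were higher and 5 lower. Their list mean was 10.59 to 11.355 in expanded skin, 10.50 to 11.44 in non-expanded skin, 10.41 in anagen and 11.37 in telogen. The part of these cells in the levels of Gli1, Ptch1 and Hhip was not tested.

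Of 68 pathway genes listed by role, 64 were on the array under their symbols and 44 besides the 8 genes passed the filter. For 4 of the 44 (9.09%) all expander arrays lay below both arrays without surgery, against 4.15% of all genes. These were Sox9, a transcription factor of the hair follicle and a Gli target, and the ciliary transport genes Ift80, Dync2h1 and Wdr35. In anagen 15 of the 44 (34.1%) stood at least 2-fold above telogen and 1 at least 2-fold below. In expanded against non-expanded skin 31 were higher and 13 lower with a median of 0.20, but 0 passed the test and 4 had an unadjusted p under 0.05. In non-expanded skin against skin without surgery 13 were higher and 31 lower (median -0.28), and in expanded skin 17 and 27 (median -0.09), with 0 passing in each. Over all genes tested, the medians of these comparisons were 0.02, 0.01 and 0.01, in that order.

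Among genes for ligands and their release, Scube2, which helps Shh leave the cell that makes it, had 6.62 to 7.64 in expanded skin and 4.62 to 6.75 in non-expanded skin. On each of the 4 days Scube2 was the higher in expanded skin, by 1.13 ± 0.28 in the fit, but it did not pass (adjusted p = 0.370). It had the smallest p of its list in this same comparison, so the days are no separate evidence. Its non-expanded value of day 0 (4.62) lay below the background median of that array (5.53). Disp1, which exports the ligand, differed by -0.49, Hhat, which adds its palmitate, by 0.44, and Scube1 by -0.13. Indian hedgehog (Ihh) lay between 5.25 and 5.73 on all 10 arrays, near the background median. Desert hedgehog (Dhh) lay between 3.48 and 3.95 and did not pass the filter.

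The co-receptors Gas1, Boc and Cdon, which present the ligand to Ptch1, differed by 0.63 ± 0.30, 0.47 ± 0.36 and 0.12 ± 0.36 between expanded and non-expanded skin, and none passed. Unlike Ptch1, Smo and Hhip, all 3 were lower in anagen than in telogen, Gas1 with 6.14 and 7.01, Boc with 9.60 and 9.92, and Cdon with 8.46 and 9.29. Among cytoplasmic regulators, the kinase gene Csnk1a1 differed by 0.65 ± 0.24 and Mosmo, which lowers Smo at the cilium, by 0.68 ± 0.26. Evc, a ciliary protein that relays the Smo signal, differed by -0.66 ± 0.28, and Iqce, its partner, by -0.35. Of the genes of the cilium, Wdpcp differed by 0.65, Ift172 by 0.48, Wdr35 by 0.37 and Bbs1 by -0.34. In non-expanded skin 11 of the 12 ciliary genes tested were lower than the mean of anagen and telogen, with none past the test. Their median was -0.41, against 0.01 for all genes tested.

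Among the 10 tested genes of the Gli target list, which include Gli1, Ptch1 and Hhip, 9 were higher in expanded than in non-expanded skin. Their median was 0.25, against 0.02 for all genes tested, with 0 past the test. All 10 were lower in non-expanded skin than the mean of anagen and telogen (median -1.31, 0 past the test). In expanded skin 8 were lower than that mean (median -0.78), and Gli1 was the 1 gene past the test. Against telogen alone the list went both ways. Ccnd2, Sfrp1, Snai1, Prdm1 and Rasl11b averaged 10.71, 11.62, 5.37, 9.23 and 6.20 in non-expanded skin. The telogen array had less of each, with 10.13, 10.37, 5.15, 8.64 and 5.53. Gli1, Ptch1, Hhip, Bcl2 and Sox9 averaged below telogen in both arms. Sfrp1, a secreted Wnt inhibitor, had 12.87, 13.70, 12.99 and 13.49 in expanded skin and 10.28, 12.06, 11.64 and 12.52 in non-expanded skin. It was higher on every day, by 1.64 ± 0.31 in the fit (adjusted p = 0.303), with 15.22 in anagen and 10.37 in telogen. Sfrp1 had the smallest p of its list in this same comparison, so the days are no separate evidence. Sox9 had 10.21 to 12.04 in expanded skin and 10.55 to 11.69 in non-expanded skin, against 13.99 in anagen and 12.19 in telogen. The cell cycle gene Ccnd2 differed by 0.42 between the arms, the survival gene Bcl2 by 0.70, Prdm1 by 0.61 and Rasl11b by 0.27. Mycn and Foxe1 did not pass the filter and stood out in anagen alone, at 6.18 for Mycn against 3.54 in telogen, and at 6.35 for Foxe1 against 4.38.

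**Figure D4:**
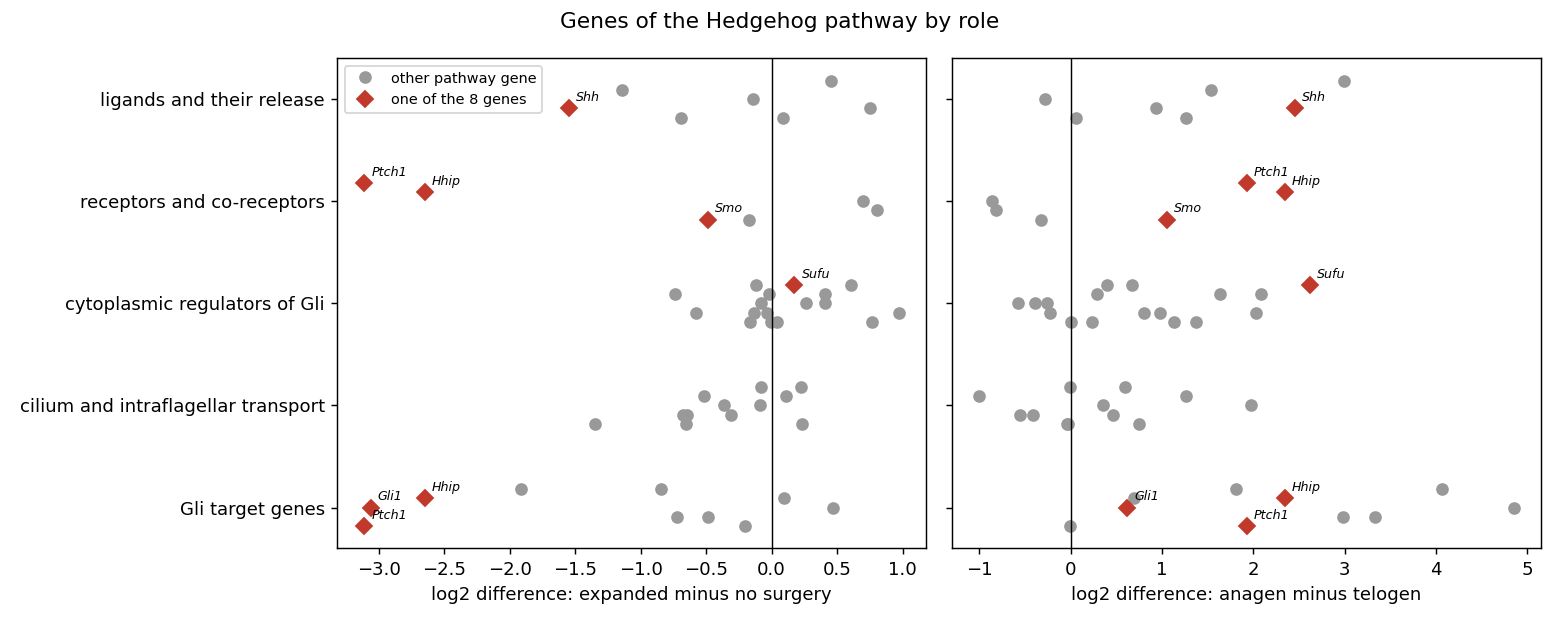
Each point is 1 tested pathway gene, in rows by role, with the log2 difference of expanded skin minus skin without surgery on the left and of anagen minus telogen (1 array each) on the right. Diamonds mark Shh, Ptch1, Smo, Gli1, Hhip and Sufu, and Ptch1 and Hhip appear under both of their roles. On the left Ptch1, Gli1 and Hhip, at -3.11, -3.06 and -2.65, lie furthest to the left of all genes drawn, and on the right all diamonds lie above 0.

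Over the 10 arrays the signals of Ptch1 and Hhip were most alike among pairs of the 8 genes (Pearson r = 0.96), followed by Ptch1 and Gli1 (r = 0.91). Over the 8 expander arrays alone the first pair kept r = 0.79 and the second had r = 0.44. Shh and Hhip had r = 0.86 over 10 arrays and -0.02 over the 8, so that likeness comes from the arrays without surgery. These are descriptions, and the arrays share arm, day and hair stage. Outside the 8 genes, Cobll1 was most like Gli1 (r = 0.97 over 10 arrays, 0.85 over 8), followed by Cacng4 (0.95 and 0.76) and Bhlha9 (0.95 and 0.80). Aktip, Plagl2 and Kcna10 were next at 0.95, with 0.79, 0.79 and 0.56 over the 8. Kcna10 had 4.74 to 4.94 over the expanders, 5.34 in anagen and 5.23 in telogen, at or below background. Bhlha9, from 5.18 to 6.28, never rose above the brightest background probe set (6.66). Cacng4 was also 1 of the 4 genes called lower in expanded skin, by 2.53 ± 0.42, beside Alms1 and Hamp2. Most like Shh were Bag2, Glyr1, Mlana, Zfand6, Tyrp1 and Wdr33, each with r = 0.96 over 10 arrays. Over the 8 expander arrays their r was lower, from 0.63 (Tyrp1) to 0.88 (Bag2). Mlana and Tyrp1 are genes of pigment cells, and Tyrp1 had 14.35 in anagen, 7.75 in telogen and at most 7.43 over the expanders.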

How the data were processed

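Per the labels' protocols, total RNA of whole skin was labelled by the Affymetrix WT PLUS method. The authors deposited 1 log2 signal for each of 28846 probe sets and 10 arrays, and background correction, summarisation and normalization are not given in the sources used here, so the log base was read from the range of the values (1.88 to 19.88). The submitters' processing notes name mm10. A symbol was given for 19572 probe sets, all matched to RefSeq (GRCm38.p6), and 9274 had none and were left out. For 55 genes with several probe sets the one with the highest mean was used. Fits used limma 3.58.1 (lmFit, eBayes, two-sided) in R 4.3.3 over 13653 genes with Benjamini-Hochberg adjustment at 0.05, and tables were made in Python 3.11.15. Expanded and non-expanded skin were compared with the day as a block (3 residual degrees of freedom), slopes had 4, and the fit of all 10 arrays had 7. Time points carry the same numbers in both arms per the labels, so the day pairs the arrays; departures from the arm mean, compared between the pair of arrays of days 0, 7, 14 and 21, had correlations of -0.133, -0.171, -0.104 and 0.358. The fits were tested on simulated data with known shifts. The number of arrays limits the precision.

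The 8 genes, the pathway and marker lists and the naming rule were chosen with earlier results of these data known. The rule names all 8 genes, from each pathway list the 4 other genes with the smallest p between expanded and non-expanded skin, a few fixed pathway genes, the 6 genes most like Gli1 and the 6 most like Shh, and from each hair list the 2 genes with the smallest p. Tchh, Wif1, Corin and the macrophage genes were named as members of marker lists. A few listed pathway genes are not reported here, and a planned comparison of protein sequences was not analysed here.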

Additional observations from a re-analysis of the deposited data

Results flagged for a closer look

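In 3 of the 16 groups examined (8 genes in 2 arms of 4 arrays) 1 array stood far from the others by Dixon's test, which chance alone gives in about 1 of 20 groups. Shh was 7.23 on the expanded array of day 21, the highest of its arm, where the other arrays had 6.80 to 6.83. Hhip was 6.28 on the same array, with the others at 5.31 to 5.42. Sufu was 7.66 on the expanded array of day 0, the lowest of its arm, with the others at 8.09 to 8.17. In non-expanded skin 0 of the 8 genes had such an array. Each day has 1 array per arm, so no second array of that day and arm bears on these values.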

How the results depend on the processing

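Of 307 values recomputed under an alternative, 281 kept their direction and their side of the threshold. Without the day as a replicate block, expanded and non-expanded skin differed in 2 genes in place of 0, none of them among the 8, and with each day left out in turn in 0 to 1. The signs of small differences between expanded and non-expanded skin turned when a day was left out, with ranges of -0.19 to 0.26 for Shh, -0.20 to 0.57 for Ptch1, -0.090 to 0.18 for Smo, -0.46 to 0.033 for Gli3 and -0.24 to 0.34 for Hhip. With the mean of muscle genes as a covariate Smo was -0.13 and Gli3 0.39, and with the mean of hair genes Hhip was -0.017. Left-out days gave 0.012 to 0.60 for Gli2, -0.41 to -0.11 for Sufu and -0.74 to -0.34 for Gli1 there. The slope of Shh in non-expanded skin ranged from -1.38 to 0.50, its difference of slopes from 0.11 to 1.37 and the slope of Gli3 in expanded skin from 0.24 to 1.15. For non-expanded skin against anagen alone, 2645 genes and 6 of the 8 were called, and Sufu was -0.85. For expanded skin against skin without surgery, 33 genes were called with no level filter, 0 to 37 with a day left out and 1850 against anagen alone; of the 8 genes, 0 to 1 were called with a day left out, 0 against telogen alone and 5 against anagen alone. There Smo (0.04) and Gli2 (0.19) turned sign against telogen alone and Sufu (-1.14) against anagen alone. Gli1 was lower in expanded skin under all 11 alternatives of that comparison, with differences of -3.37 to -2.75 and adjusted p from 0.00374 to 0.0991. Where anagen or telogen stood alone, the lone array is assumed to vary like the other groups. The cause of these changes was not tested. Low signals of Gli1 and Hhip lie at the background, which limits how far their levels can be told apart.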

Other observations

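Hair follicle genes outside the pathway were also followed between expanded and non-expanded skin, and 0 passed the test across all genes. The genes named here had the smallest p of their lists in this same comparison, so ranges that lie apart are no separate evidence. Lgr5, a receptor for R-spondins found on hair follicle stem cells, had 9.88 to 11.44 in expanded skin and 7.84 to 9.44 in non-expanded skin (difference 1.91 ± 0.30, limma adjusted p = 0.268). Inhba, a subunit of activin, had 8.20 to 10.31 in expanded skin and 7.02 to 7.75 in non-expanded skin (1.75 ± 0.44, adjusted p = 0.370). The Wnt ligand Wnt10a had 7.34 to 7.64 in expanded skin and 6.56 to 7.06 in non-expanded skin, and Col17a1, a collagen of the basement membrane zone, had 13.39 to 13.94 in expanded skin and 12.42 to 13.30 in non-expanded skin. Rspo3, a ligand of the Lgr receptors, was lower in expanded skin by 1.75 ± 0.71, with 5.55 to 7.55 there and 7.01 to 9.32 in non-expanded skin. The matrix gene Msx2 (0.75 ± 0.37) and the hair desmosome gene Dsg4 (1.57 ± 1.07) overlapped between the arms. Both had their highest expander signal on the expanded array of day 7, Msx2 with 6.31 and Dsg4 with 10.10. The other expander arrays had Msx2 at 4.15 to 4.76, below the background median of 5.46. Msx2 passed the level filter only through the anagen array. In anagen Msx2 had 11.67, against 4.28 in telogen, and Dsg4 had 15.15, against 5.58.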
